A study of Homo sapiens with 6 samples.

Results

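The genes of the WNT ligands, their Frizzled receptors and 2 families of secreted WNT antagonists were compared between KYSE70 cells and NRF2null-KYSE70 cells. Members were taken by gene symbol alone, as WNT, FZD, DKK1 to DKK4 and SFRP1 to SFRP5 genes, which gave 37 of the 58884 genes in the table. They were 19 WNT ligands, 10 Frizzled receptors, 4 DKK antagonists and 4 SFRP antagonists. KYSE70 is a cell line from a human esophageal squamous cell carcinoma (ESCC), and its own NFE2L2 gene, which encodes the transcription factor NRF2, is mutant. NRF2null-KYSE70 was derived from it by CRISPR-Cas9 cutting in exon 2 of NFE2L2 and grown from 1 clone. Both lines were untreated and grown in the same RPMI1640 medium with serum, and each had 3 libraries. Because NRF2null-KYSE70 is 1 clone, every difference below is between that clone and its parental line, and the edit of NFE2L2 and other differences of the clone cannot be told apart. The study also describes some NRF2 protein as remaining in the clone, so it is no complete null. The labels do not say whether the libraries came from separate cultures, so p-values measure the spread between these libraries, which may be technical.

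WNT proteins are secreted, lipid-modified ligands that bind the cysteine-rich domain of Frizzled receptors. With the co-receptors LRP5 and LRP6 they stabilize beta-catenin, which then drives transcription with TCF and LEF factors. With other co-receptors, such as ROR1 and ROR2, they act on cell polarity, migration and calcium without beta-catenin. DKK1 blocks LRP5 and LRP6, whereas SFRP proteins carry a Frizzled-like domain and bind WNT ligands outside the cell. In squamous epithelium these signals take part in the balance of basal cell renewal and differentiation.

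The libraries held 52072801 to 63975313 gene-assigned reads each. Library 1 of NRF2null-KYSE70 stood apart from the other two, with a chi-square per degree of freedom of 23.4 and 23.0 against libraries 2 and 3, where those differed by 4.59 and KYSE70 libraries by 6.47 to 12.5. Values are normalized counts, that is, reads divided by 1 size factor per library. As a check of the labels, NFE2L2 had 9839, 9906 and 10039.8 normalized counts in KYSE70 and 5803, 6041 and 6434 in NRF2null-KYSE70, so that 61.4% of the parental level was left (log2 change -0.71 ± 0.049 SE, adjusted p = 9.37e-08 by limma). RNA of an edited gene can persist, and its level does not show whether the protein was lost. Of 12 squamous epithelial markers, all were expressed in both lines. At an adjusted p under 0.05, 6 were higher and 6 lower in NRF2null-KYSE70 (median log2 fold change -0.09), or 100% against 57.6% of all tested genes. Their summed level, most of it KRT5, was 378792 to 385796 normalized counts in KYSE70 and 287937 to 300512 in NRF2null-KYSE70. Of 10 fibroblast markers, COL1A2 and DCN had no read in any library, while COL1A1, COL3A1, POSTN, THY1 and FBLN1 were expressed in KYSE70. Of these 5, 2 were higher and 3 lower at the adjusted p (median -0.39), or 100% against 57.6% of all tested genes. COL1A1 and COL3A1 were lower past both thresholds defined below, or 40% against 14.7% of all tested genes. The sum over the list, most of it POSTN, was 30922 to 32208 in KYSE70 and 32751 to 35883 in NRF2null-KYSE70. Endothelial markers summed to 134 to 149 and 277 to 452, nearly all of it VWF, with KDR at 0 in both lines. Leukocyte markers summed to at most 15.8 in KYSE70 and 42.2 to 58.2 in NRF2null-KYSE70, where PTPRC had 125 reads against 1. The part of these marker differences in the results below was not tested.

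Of the 37 members, 27 had a mean of at least 10 normalized counts over the 6 libraries and were tested with limma on log2(normalized count + 1) within all 15994 genes above that mean. Calls used 2 thresholds, an adjusted p under 0.05 and a log2 fold change (log2 change, NRF2null-KYSE70 over KYSE70) of 1 or more in size. Past both, 3 members were higher and 6 lower in NRF2null-KYSE70, or 33.3% of the tested members, where 14.7% of all tested genes passed both. In each direction the share over all genes was 7.23% for higher and 7.43% for lower. At the adjusted p alone, 13 members were higher and 10 lower, or 85.2%, against 57.6% of all tested genes (29.3% higher and 28.3% lower). For 22 of the 27, no library of one line lay within the range of the other, or 81.5%, against 63.4% of all tested genes. WNT16, WNT10A and WNT2B were under a mean of 10 in 1 of the lines and entered the test through the other. The median absolute log2 fold change was 0.62 over the tested members and 0.36 over all tested genes. Without library 1 of NRF2null-KYSE70, 3 members were higher and 6 lower past both thresholds, and 12 higher and 9 lower at the adjusted p. In bulk RNA, fewer cells that express a gene and less RNA in each cell cannot be told apart.

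**Figure D1:**
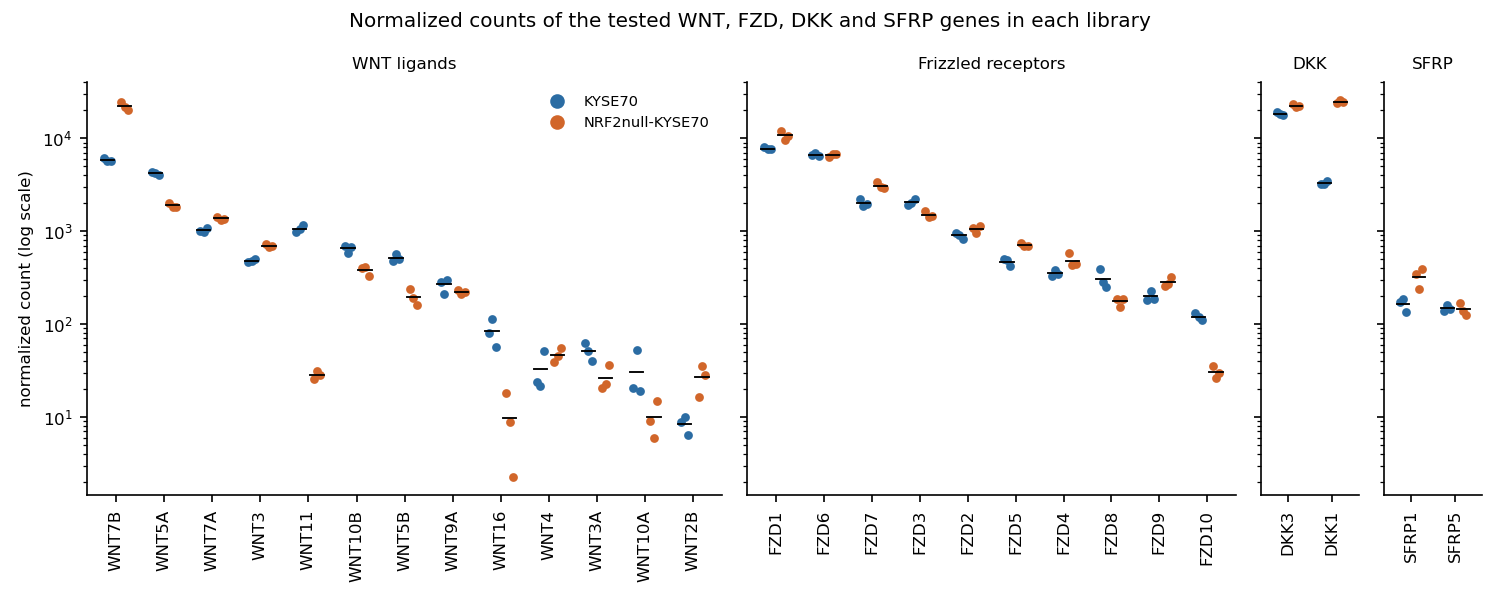
Normalized counts (log scale) of the 27 tested members in each library, with 3 points for KYSE70 (blue) and 3 for NRF2null-KYSE70 (orange) and a black bar at each mean. WNT7B and DKK1 lie far higher in NRF2null-KYSE70, WNT11, WNT16 and FZD10 far lower, and FZD6 and SFRP5 overlap.

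Of the 13 ligands tested, 4 were higher and 7 lower at the adjusted p, or 84.6% against 57.6% of all tested genes. Past both thresholds 2 were higher and 5 lower, or 53.8% against 14.7% of all tested genes. These include WNT16, WNT10A and WNT2B, which passed the filter only through the line where they were higher, so this share is not free of that selection. WNT7B and its close relative WNT7A were both higher, whereas WNT11, WNT5A and WNT5B were all lower. WNT5A, WNT5B and WNT11 are best known for signals that do not need beta-catenin. Ligands best known for signals through beta-catenin lay on both sides, with WNT3 higher and WNT3A, WNT10A and WNT10B lower at the adjusted p. These groupings of ligands were made after their values were seen and were not tested.

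WNT7B (ENSG00000188064, chromosome 22 from 45920366 to 45977162, hg38) had 6179, 5744 and 5642 normalized counts in KYSE70 and 24596, 21663 and 20365 in NRF2null-KYSE70. Each library of the clone was above each parental library. The rise was 3.79-fold, from a mean of 5855 ± 285 to 22208 ± 2168 (SD, n = 3 per line), or 1.92 ± 0.066 on the log2 scale (SE, adjusted p = 1.39e-10 by limma). WNT7A, on chromosome 3, had 1016, 979.6 and 1073 normalized counts in KYSE70 and 1422, 1334 and 1364 in NRF2null-KYSE70. It was higher without overlap, by 0.43 on the log2 scale (SE 0.070, limma adjusted p = 0.000196). In contrast, the 40 tested protein-coding genes around it, 20 on each side, had a median log2 fold change of -0.45.

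WNT11 (ENSG00000085741, chromosome 11 from 76186325 to 76210736) had the largest fall of the tested members. Its normalized counts were 972.9, 1043 and 1152 in KYSE70 and 25.4, 31.4 and 28.5 in NRF2null-KYSE70. The clone thus kept 2.69% of the parental level, or -5.17 ± 0.156 on the log2 scale (SE, adjusted p = 4.69e-11 by limma). Neighbouring genes had a median log2 fold change of -0.01. In the clone 25, 32 and 25 reads remained, above the floor of 3 reads per library. A long noncoding RNA gene lies on the opposite strand of WNT11, and its reads could not be told apart from those of WNT11 if the counting, whose strand setting was not stated, did not use strand.

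WNT5A (ENSG00000114251, chromosome 3 from 55465715 to 55490539) had 4344, 4236 and 4013 normalized counts in KYSE70 and 2029.6, 1841 and 1811 in NRF2null-KYSE70. The groups did not overlap, and the clone held 45.1% of the parental level (log2 change -1.15 ± 0.061 SE, adjusted p = 7.83e-09 by limma). WNT5A lies on a stretch of chromosome 3 where neighbouring genes had a median of -0.45, and after that median was subtracted the log2 fold change was -0.70, no longer past the fold threshold. WNT5B, on chromosome 12, had 478, 566 and 499 normalized counts in KYSE70 and 237, 190.2 and 159.8 in NRF2null-KYSE70. Its fall to 38.1% of the parental level (log2 change -1.40 ± 0.150 SE, adjusted p = 4.75e-06 by limma) occurred among neighbours with a median of 0.08. WNT5B shares its position with FBXL14, and WNT5A with WNT5A-AS1, each on the other strand, with the same limit.

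WNT5B and WNT5A both fell and each have 2 start sites in RefSeq (GRCh38.p14), and only the promoters of WNT5A are shown. Each is given as the 250 bases before the start site, read 5′ to 3′ on the minus strand, at chr3:55487307-55487556 for the first and chr3:55481399-55481648 for the second. Neither held a match to the motifs searched and listed below with DKK1, so neither has capitals.
WNT5A start 1: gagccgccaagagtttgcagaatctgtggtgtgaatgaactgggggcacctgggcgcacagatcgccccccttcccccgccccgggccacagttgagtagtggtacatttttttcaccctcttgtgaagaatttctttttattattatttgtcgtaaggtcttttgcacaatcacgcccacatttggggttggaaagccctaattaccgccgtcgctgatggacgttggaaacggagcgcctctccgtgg
WNT5A start 2: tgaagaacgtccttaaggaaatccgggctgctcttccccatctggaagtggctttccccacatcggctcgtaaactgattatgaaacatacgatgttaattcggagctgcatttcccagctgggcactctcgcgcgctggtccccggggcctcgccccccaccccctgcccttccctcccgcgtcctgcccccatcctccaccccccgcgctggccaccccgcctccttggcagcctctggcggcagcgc

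The other ligands past both thresholds had few reads. WNT16, which is prominent in skin and bone, had 80.9, 112 and 56.9 normalized counts in KYSE70 and 18.3, 8.83 and 2.28 in NRF2null-KYSE70. The groups were apart, but the clone's libraries spread over 18, 9 and 2 reads, and the log2 change of -3.25 ± 0.565 (SE, adjusted p = 0.000296 by limma) lay between -3.84 and -2.56 with any 1 library omitted. WNT10A, mutated in ectodermal dysplasia, had 20.5, 52.6 and 19.0 normalized counts against 9.13, 5.88 and 14.8. Its log2 change was -1.46 ± 0.526 (SE, adjusted p = 0.0306 by limma). The call was lost without KYSE70 library 2 (limma adjusted p = 0.165), the highest of the parental libraries, without NRF2null-KYSE70 library 2 (0.0935), and with the median of its neighbours subtracted (0.0512). WNT2B, which overlaps ST7L on the other strand, went the other way, from 8.89, 9.98 and 6.33 to 16.2, 35.3 and 28.5 normalized counts (log2 change 1.51 ± 0.477 SE, adjusted p = 0.016 by limma). Leaving out NRF2null-KYSE70 library 2 or library 3 gave limma adjusted p-values of 0.0767 and 0.0546.

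Of the remaining ligands, WNT3 and WNT10B differed without reaching the fold threshold. WNT3, a beta-catenin ligand, rose from 465, 473 and 507 to 721, 672 and 691 normalized counts (log2 change 0.53 ± 0.090 SE, adjusted p = 0.000247 by limma). WNT10B fell from 697, 587 and 678 to 397, 412 and 325 (log2 change -0.79 ± 0.117 SE, adjusted p = 7.92e-05 by limma). It lies among genes with a median of -0.52, and its log2 fold change after subtracting that median was -0.27 (limma adjusted p = 0.0672). WNT3A, with 62.3, 51.7 and 40.1 normalized counts in KYSE70 and 20.3, 22.6 and 36.5 in NRF2null-KYSE70, was lower, just short of the fold threshold (log2 change -0.95, adjusted p = 0.0285 by limma). That call was lost without KYSE70 library 1 (0.108) or 2 (0.0751) or NRF2null-KYSE70 library 1 (0.0796) or 2 (0.0728), and the value passed -1 without KYSE70 library 3 (-1.12) or NRF2null-KYSE70 library 3 (-1.20). The call was also lost with no filter on low values (0.081) and under quantile normalization (0.0509), and total scaling gave -1.03.

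WNT9A and WNT4 were tested and not called. WNT9A had 286, 213 and 302 normalized counts in KYSE70 and 235, 212 and 224 in NRF2null-KYSE70, with a 95% interval of its log2 fold change from -0.57 to 0.09 (limma adjusted p = 0.203), and it passed at 0.0422 without KYSE70 library 2. WNT4 had 24.0, 21.8 and 51.7 against 39.6, 45.1 and 54.8, with an interval from -0.20 to 1.40 (limma adjusted p = 0.182), and it passed at 0.0333 without KYSE70 library 3. In both genes the libraries of the lines overlapped.

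The 6 ligands that were not tested were WNT1, WNT2, WNT6, WNT8A, WNT8B and WNT9B. WNT1 and WNT8A had no read in any of the 6 libraries. WNT2 had 2 reads, all in KYSE70, WNT8B had 1 read in KYSE70 and 4 in NRF2null-KYSE70, WNT6 had 8 and 2, and WNT9B had 8 and 14. Some of these genes lie next to an expressed member. WNT1 is 6.586 kb from WNT10B on chromosome 12, and 46 bases lie between the annotated starts of WNT9B and WNT3 on chromosome 17, which are read in opposite directions. On chromosome 2, WNT6 and WNT10A are 6.618 kb apart. WNT3A and WNT9A, which were both tested, lie 59.065 kb apart on chromosome 1.

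Levels of different genes were compared per kilobase of the union of annotated exons. On this scale the 19 ligands summed to 3057, 2955 and 2995 normalized counts per kilobase in KYSE70 and to 5879, 5236 and 4956 in NRF2null-KYSE70, a 1.78-fold difference in the means. WNT7B was the most abundant ligand in both lines, at 38.4% of this sum in KYSE70 and 81.6% in NRF2null-KYSE70. WNT5A and WNT11 followed in KYSE70 with 19.5% and 14.8%, and in the clone they held 4.94% and 0.224%. In NRF2null-KYSE70 WNT7A followed WNT7B with 303 ± 9.91 normalized counts per kilobase, close to WNT5A with 265 ± 16.6 (SD, n = 3). Ligand RNA per kilobase was thus mostly that of 1 gene in NRF2null-KYSE70 and of several genes in KYSE70.

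**Figure D2:**
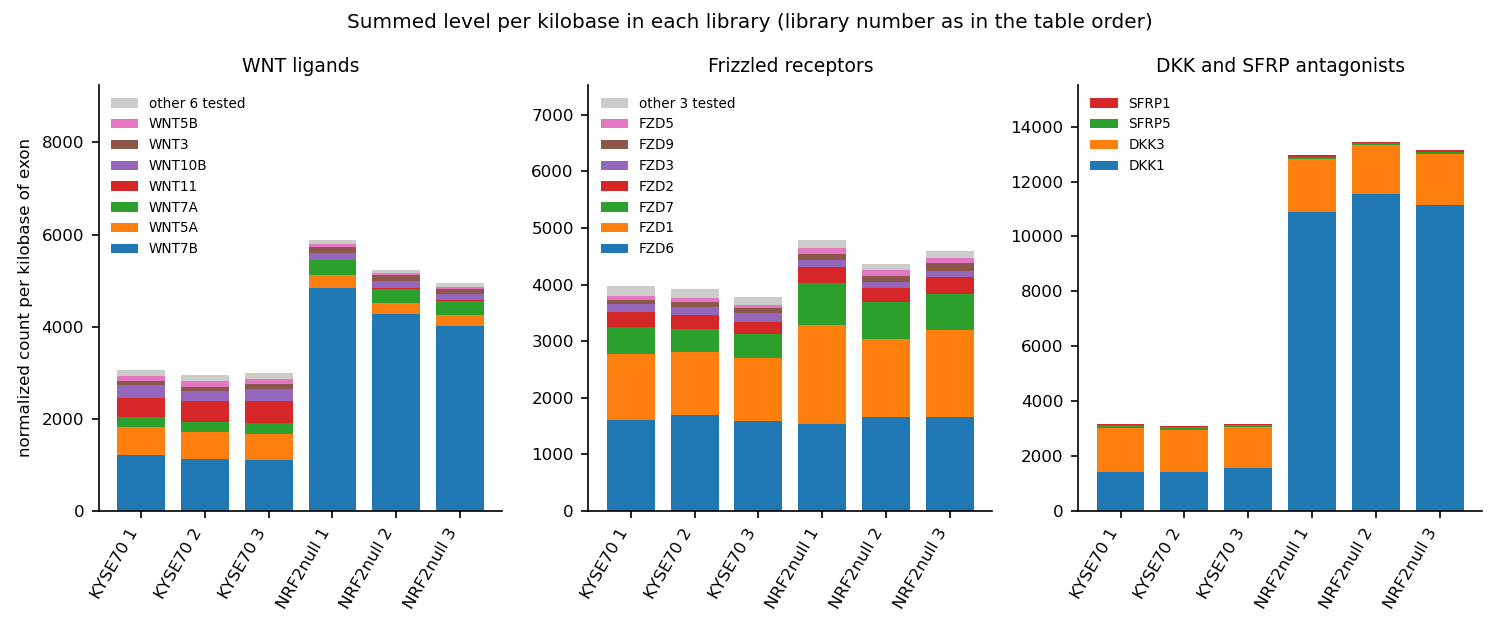
Normalized counts per kilobase of exon in each library, stacked by gene from 0, for the tested ligands, receptors and antagonists. WNT7B takes 81.6% of the ligand sum in NRF2null-KYSE70 against 38.4% in KYSE70, the receptors change little in total, and DKK1 makes up most of the antagonist sum in the clone.

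All 10 Frizzled receptors were tested, with a median absolute log2 change of 0.49, where that of the 13 ligands tested was 1.15. At the adjusted p, 6 were higher and 3 lower in NRF2null-KYSE70, or 90% against 57.6% of all tested genes. FZD10 alone among the receptors passed both thresholds, or 10% against 14.7% of all tested genes. Per kilobase, the receptors summed to 3895 ± 100.5 in the parental line and 4579 ± 212 in the clone (SD, n = 3), or 1.18-fold. FZD6 and FZD1 were the most abundant receptors in both lines, with 41.9% and 28.9% of the sum in KYSE70 and 35.3% and 34.0% in NRF2null-KYSE70.

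FZD1, FZD2 and FZD7 form 1 subfamily by sequence, and their values lay in the same direction. FZD7, often tied to stem-like epithelial cells, had 2218, 1876 and 1939 normalized counts in KYSE70 and 3399.9, 2970.2 and 2914 in NRF2null-KYSE70, without overlap (log2 change 0.62 ± 0.078 SE, adjusted p = 1.87e-05 by limma). FZD1 went from 7993, 7655 and 7625 to 12037, 9574 and 10597 (log2 change 0.46 ± 0.070 SE, adjusted p = 9.45e-05 by limma). Genes near FZD1 had a median of 0.31, and with that subtracted its call was lost (0.15, limma adjusted p = 0.0909). FZD2 had 962, 917 and 821 normalized counts in KYSE70 and 1076, 945 and 1151 in NRF2null-KYSE70. These groups overlapped, and its adjusted p of 0.0489 from limma (log2 fold change 0.23, SE 0.093) stood just under the threshold. It was over the threshold without KYSE70 library 2 (0.0914) or 3 (0.186), or without NRF2null-KYSE70 library 1 (0.0658) or 3 (0.184), and with total scaling (0.172). The call was also lost with a pseudocount of 0.1 (0.0517), no filter on low values (0.0601) and TMM scaling (0.0636). So it was in limma without the trend (0.111) and with the median of its neighbours subtracted (0.115).

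FZD5 and FZD8, another pair close in sequence, differed in opposite directions. FZD5 went from 499, 492 and 419 normalized counts to 755, 699 and 698 (log2 change 0.61 ± 0.099 SE, adjusted p = 0.000167 by limma). FZD8 went from 390.4, 280.3 and 252 to 188, 153 and 186 (log2 change -0.79 ± 0.175 SE, adjusted p = 0.0019 by limma). The 95% intervals of the 2 log2 fold changes, 0.40 to 0.83 and -1.17 to -0.41, did not meet.

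FZD4, FZD9 and FZD10 form a further group, in which the first 2 were higher and FZD10 was lower. FZD10 (ENSG00000111432, chromosome 12 from 130162459 to 130165740), little expressed in most adult tissues, had 131, 119 and 112 normalized counts in KYSE70 and 35.5, 26.5 and 29.7 in NRF2null-KYSE70. The clone held 25.4% of the parental level (log2 change -1.95 ± 0.242 SE, adjusted p = 1.74e-05 by limma). Neighbouring genes had a median of -0.43, and FZD10 remained past both thresholds with it subtracted (-1.52). FZD4, which also serves the ligand norrin, had 326, 381 and 347 against 575, 429 and 443 (log2 change 0.45 ± 0.130 SE, adjusted p = 0.0105 by limma). FZD4 shares its position with PRSS23 on the other strand. FZD9 had 179.6, 229 and 186 against 258, 272 and 317 (log2 change 0.51 ± 0.149 SE, adjusted p = 0.0106 by limma). Its call was lost with the neighbours' median of 0.19 subtracted (limma adjusted p = 0.0838).

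FZD3 and FZD6, the receptors best known from planar cell polarity, lie on the short and the long arm of chromosome 8. FZD3 had 1889.8, 2017 and 2219 normalized counts in KYSE70 and 1650.2, 1404 and 1469 in NRF2null-KYSE70 (log2 change -0.44 ± 0.079 SE, adjusted p = 0.000413 by limma). Its neighbours had a median of -0.37, and the remaining -0.07 was not called (limma adjusted p = 0.468). FZD6 had 6561, 6882 and 6479.9 against 6264, 6727 and 6734, and the groups overlapped. The 95% interval of its log2 fold change ran from -0.12 to 0.09 (limma adjusted p = 0.822). Genes near FZD6 had a median of 0.18, and with that subtracted its log2 change was -0.20 and called (limma adjusted p = 0.00521).

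**Figure D3:**
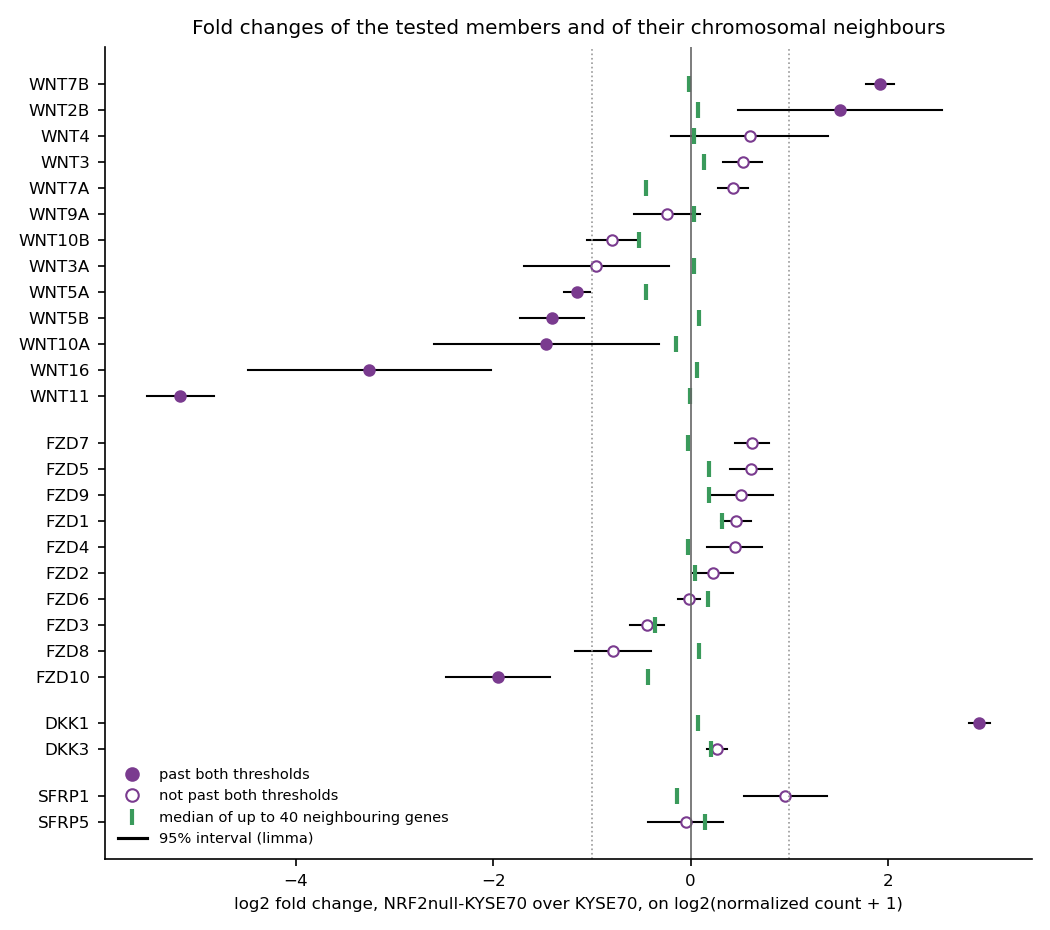
Log2 fold change of each tested member (NRF2null-KYSE70 over KYSE70, circles, filled where both thresholds were passed) with its 95% interval from limma (lines), and the median log2 fold change of up to 40 neighbouring tested genes (green ticks). The green ticks lie between -0.52 and 0.31, while WNT11 is at -5.17 and DKK1 at 2.92.

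Among the antagonists, DKK1 showed the largest rise of the tested members. DKK1 (ENSG00000107984, chromosome 10 from 52314281 to 52318042) had 3191, 3186 and 3445 normalized counts in KYSE70 and 24156, 25608 and 24781 in NRF2null-KYSE70. Every library of the clone was far above every parental library. The mean rose 7.59-fold, from 3274 ± 148 to 24848 ± 728 (SD, n = 3 per line), or 2.92 ± 0.049 on the log2 scale (SE, adjusted p = 2.81e-13 by limma). It ranged from 2.83 to 2.96 over the 17 alternatives run for it. Genes around DKK1 had a median of 0.07, and PRKG1-AS1 lies on its other strand.

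The promoter of DKK1 is shown because this gene rose most. The 250 bases before its RefSeq start site, at chr10:52314031-52314280 (GRCh38.p14, plus strand), are given 5′ to 3′, with the match to a searched motif in capitals.
DKK1: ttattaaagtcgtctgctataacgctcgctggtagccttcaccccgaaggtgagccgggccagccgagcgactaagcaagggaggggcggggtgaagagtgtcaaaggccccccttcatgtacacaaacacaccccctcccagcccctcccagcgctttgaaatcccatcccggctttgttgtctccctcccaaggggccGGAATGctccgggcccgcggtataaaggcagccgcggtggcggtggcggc

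Motifs were searched on both strands of these windows as CTTTGAT for TCF and LEF factors, TGACNNNGC for the antioxidant response element that NRF2 binds, TGANTCA for AP-1 and CATTCC for TEAD factors. Only these letters were searched. Variants of a site that differ by a base, such as the ctttgaa in the DKK1 window, were not counted, so a window without a match may still hold a site. DKK1 held 1 TEAD match, read on the minus strand, that begins 50 bases before the start site. The same letters occur in 11.9% of 34788 distinct RefSeq windows of this length. The CTTTGAT, TGACNNNGC and TGANTCA letters occur in 2.27%, 10.9% and 6.59% of them. Of the 25 members with a promoter in the table, which include 6 of the 9 past both thresholds, WNT2 was the other with a match, to TGACNNNGC. WNT7B, WNT11 and FZD10 were not among the 25.

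DKK3, which unlike DKK1 does not bind LRP5 or LRP6 strongly, was abundant in both lines. It overlaps USP47 on the other strand. It had 19184, 18242 and 17944 normalized counts in KYSE70 and 23199.8, 21479 and 21980.3 in NRF2null-KYSE70, without overlap, a small difference (log2 change 0.27 ± 0.048 SE, adjusted p = 0.000371 by limma). Its neighbours had a median of 0.21, and 0.06 was left after subtraction (limma adjusted p = 0.295). DKK2 and DKK4 had no read in any library. Per kilobase of exon the DKK genes summed to 3018 ± 50.2 in the parental line and 13046 ± 259 in the clone (SD, n = 3). DKK1 made up 48.8% of the sum in KYSE70 and 85.8% in NRF2null-KYSE70. The annotated exons of DKK3 are far longer together than its canonical transcript, and by canonical length these shares of DKK1 were 19.9% and 61.0%. The DKK sums by canonical length were 9123 in KYSE70 and 22566 in NRF2null-KYSE70. That is a 2.47-fold difference, against 4.32-fold by the union of exons.

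The SFRP antagonists were at low levels. SFRP1, silenced in many carcinomas, had 172, 187 and 134 normalized counts in KYSE70 and 347, 237 and 388 in NRF2null-KYSE70, without overlap. Its log2 change of 0.96 ± 0.194 (SE, adjusted p = 0.000949 by limma) stood just short of the fold threshold. It passed both thresholds without KYSE70 library 2 (1.06) or NRF2null-KYSE70 library 2 (1.17), the lowest of the clone. So it did under quantile normalization (1.03) and with the median of its neighbours subtracted (1.09). SFRP5 had 139, 161 and 147 against 169, 139 and 126, with overlap and a 95% interval from -0.43 to 0.33 (limma adjusted p = 0.83). SFRP4 had 25 reads in KYSE70, 19 of them in library 2, and 5 in NRF2null-KYSE70. SFRP2 had 1 read in all, in NRF2null-KYSE70. The SFRP genes together held 116 ± 12.3 normalized counts per kilobase in the parental line and 146 ± 19.9 in the clone (SD, n = 3), far below the ligands.

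The rest of the pathway was read from 8 lists written from general knowledge, which hold 126 genes in the table. Of the 111 tested, 13 were higher and 11 lower past both thresholds, or 21.6%, against 14.7% of all tested genes. At the adjusted p 48 were higher and 29 lower, or 69.4%, against 57.6% of all tested genes. Of the 111, 8 were under a mean of 10 in 1 of the lines and passed the filter through the other, among them LGR6, TNFRSF19, GPC6, IGFBP4, AMER1, PLCB1 and PLCB4. The median log2 fold change was 0.17, against -0.01 over all tested genes.

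Among 6 co-receptors tested, 4 were higher and 0 lower at the adjusted p, or 66.7% against 57.6% of all tested genes. ROR1 alone among them passed both thresholds, or 16.7%, near the 14.7% of all tested genes. ROR1, a co-receptor for WNT5A, had 234, 176 and 165 normalized counts in KYSE70 and 995, 775 and 783 in NRF2null-KYSE70 (log2 change 2.15 ± 0.149 SE, adjusted p = 8.27e-08 by limma), whereas WNT5A itself fell. LRP5 and LRP6, the co-receptors that DKK1 blocks, were higher by 0.50 and 0.69 on the log2 scale (limma adjusted p = 8.92e-05 and 0.000233). Of 7 tested genes of R-spondin reception and receptor turnover, 2 were higher and 1 lower at the adjusted p, or 42.9% against 57.6%. LGR6 alone among them passed both thresholds, or 14.3%, near the 14.7% of all tested genes. KYSE70 had no read of LGR6 and the clone 14, 27 and 22. This made LGR6 at least 7.69-fold higher, taking 3 reads in each KYSE70 library. RNF43, a ligase that removes Frizzled receptors, was higher by 0.77 (limma adjusted p = 0.000236). ZNRF3, its relative, had an interval from -0.29 to 0.02 (limma adjusted p = 0.12), and passed at 0.0147 without NRF2null-KYSE70 library 1. ZNRF3 also passed under total scaling (limma adjusted p = 0.0194) and with the median of its neighbours subtracted (0.00777).

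Ligand processing and secretion held 10 tested genes, of which 1 was higher and 3 lower past both thresholds, or 40% against 14.7% of all tested genes. The glypicans, cell surface proteoglycans that bind WNT, were divided. GPC4 rose from 2674 ± 186 to 8789 ± 480 normalized counts and GPC3 fell from 6858 ± 80.7 to 3321 ± 445 (SD, n = 3 per line). GPC3 stood at -0.98 on the log2 scale without NRF2null-KYSE70 library 2 and at -0.95 with the median of its neighbours subtracted, short of the fold threshold. GPC6 fell from 187 ± 3.87 to 6.19 ± 3.41 (SD, n = 3 per line). TRABD2B, a protease that cuts WNT ligands, fell to 42.8% of the parental level (limma adjusted p = 0.00162).

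Of 8 other antagonists tested, 2 were higher and 3 lower past both thresholds, or 62.5% against 14.7% of all tested genes. SOSTDC1, a secreted inhibitor that binds LRP6, had 4195, 4300.5 and 3905 normalized counts in KYSE70 and 13127, 12693 and 13459 in NRF2null-KYSE70 (log2 change 1.66 ± 0.051 SE, adjusted p = 5.25e-11 by limma). SOST, its closest relative, went from 431, 448 and 445 to 18.3, 15.7 and 9.13 (log2 change -4.90 ± 0.258 SE, adjusted p = 7.02e-09 by limma). The 2 genes thus moved in opposite directions without overlap. IGFBP4, which also binds insulin-like growth factors, fell to 1.32% of the parental level and APCDD1, a membrane inhibitor, to 26.1%. SERPINF1 was the other that rose, by 1.16 on the log2 scale.

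In the cytoplasmic core, 10 of 23 tested genes were higher and 4 lower at the adjusted p, or 60.9%, near the 57.6% of all tested genes. In each direction 1 passed both thresholds, or 8.70% against 14.7%. AMER1, a scaffold of the beta-catenin destruction complex, had 1261, 1147 and 957 normalized counts in KYSE70 and 17.2, 4.90 and 4.57 in NRF2null-KYSE70 (log2 change -7.05 ± 0.374 SE, adjusted p = 7.6e-09 by limma). APC2 was higher by 1.12, and by 0.95 without KYSE70 library 3. CTNNB1, which encodes beta-catenin, had 58.2% of the parental level (log2 fold change -0.78, limma adjusted p = 2.8e-08), among neighbours with a median of -0.49. In the nuclear core of 17 tested genes, 7 were higher and 7 lower at the adjusted p, or 82.4%, and 1 in each direction, or 11.8%, passed both thresholds. TLE4, a co-repressor, rose 3.18-fold and LEF1, a partner of beta-catenin, fell to 44.3% of the parental level. TCF7L2, another partner, was higher by 0.94 (limma adjusted p = 3.12e-07), under the fold threshold.

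Of 18 tested feedback and target genes of beta-catenin, 4 were higher and 2 lower past both thresholds, or 33.3% against 14.7% of all tested genes, while 55.6% passed at the adjusted p against 57.6%. AXIN2, the most widely used of them, had 35.6, 32.7 and 28.5 normalized counts in KYSE70 and 38.5, 32.4 and 43.4 in NRF2null-KYSE70, with an interval of the log2 fold change from -0.43 to 0.89 (limma adjusted p = 0.543). LGR5 and NKD1 were likewise low and not called, with intervals from -0.67 to 1.18 and from -0.34 to 0.91. PRDM1, a regulator of keratinocyte differentiation, rose 4.19-fold. The rises of FGF18, from 10.6 ± 7.50 to 81.6 ± 21.6 normalized counts, and TNFRSF19, from 7.59 ± 1.87 to 29.9 ± 6.11 (SD, n = 3 per line), began from few reads. BMP4, a growth factor, rose by 1.05 on the log2 scale, and by 0.97 without KYSE70 library 2 and 0.96 without NRF2null-KYSE70 library 1, short of the fold threshold, as it was under total scaling (0.97) and with the median of its neighbours subtracted (0.82). APCDD1 and LEF1, given above, were the 2 that fell. 

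Of 30 tested genes of the polarity and calcium branch, 12 were higher and 9 lower at the adjusted p, or 70% against 57.6%. Past both thresholds 2 were higher and 3 lower, or 16.7%, near the 14.7% of all tested genes. VANGL2, a core polarity protein, fell from 207 ± 25.0 to 27.1 ± 7.31 normalized counts and MAPK10, a JNK kinase, rose from 29.3 ± 8.41 to 200.1 ± 36.8 (SD, n = 3 per line). DAAM1, a formin, was the other that rose, by 1.08 on the log2 scale. The phospholipases PLCB1 and PLCB4 fell. PLCB1 kept 19 reads against 1806, and PLCB4 had at most 2 reads in any library of the clone and was at least 261-fold lower, taking 3 reads in each. Both lie among neighbours with medians of -0.58 and -0.53.

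**Figure D4:**
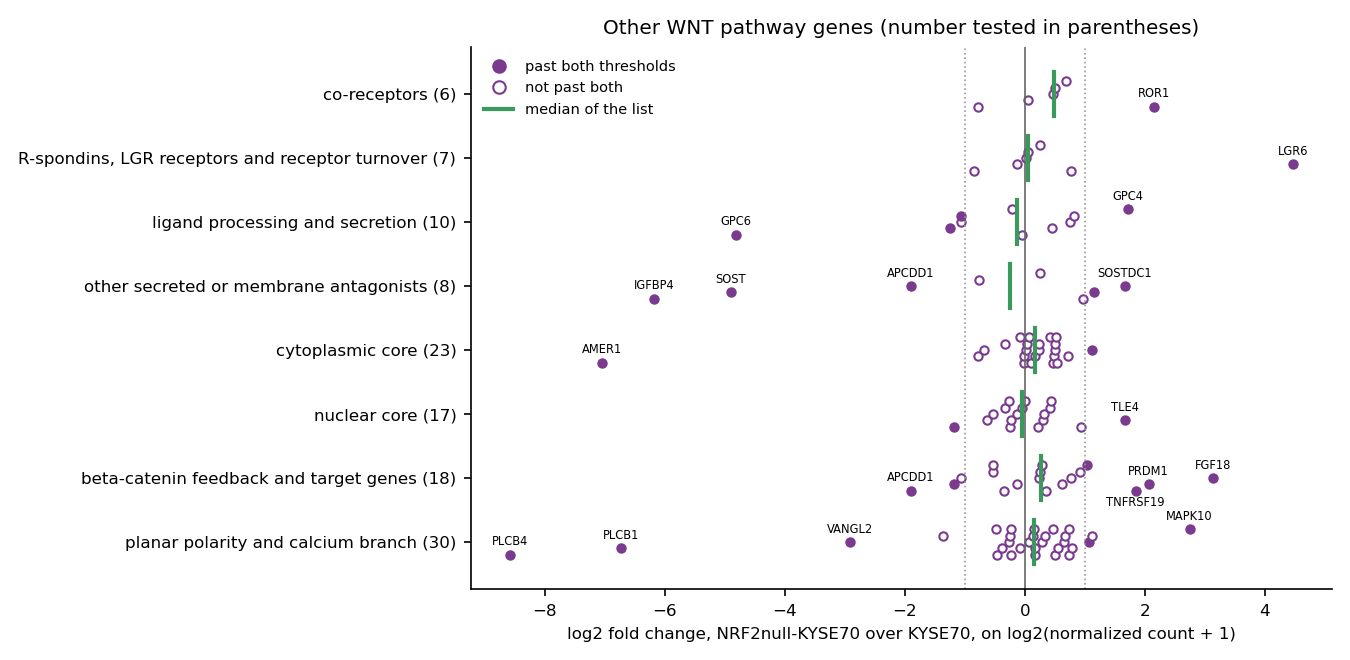
Log2 fold changes (NRF2null-KYSE70 over KYSE70) of 111 tested genes in 8 other WNT pathway lists, with filled points past both thresholds, genes beyond 1.5 named, and a green line at each list's median. A gene can be on 2 lists, and the list medians lie between -0.25 and 0.49.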

How the data were processed

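RNA was sequenced from untreated KYSE70 and NRF2null-KYSE70 cells, with 3 libraries per line. The authors aligned reads with STAR (2.6.90c) to hg38, counted them per gene with featureCounts (1.5.1) and normalized them with DESeq2; the strand setting was not given in the sources used here. The deposited values are a signal in normalized counts, reads divided by 1 size factor per library. Columns carry no replicate numbers, so libraries are numbered in table order. Whole reads were recovered for 100% of values, within 0.02 of a whole number. On these reads DESeq2 (1.42.0) called 2342 genes and edgeR (4.0.16) 2350, and limma called 2344.

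The main test was limma (3.58.1; lmFit, eBayes with trend) on log2(normalized count + 1), over 15994 genes with a mean of at least 10, with Benjamini-Hochberg adjustment. It was also run on simulated counts, with means and dispersions taken from these libraries and added changes at or above the fold threshold. That run does not show how smaller changes are called. The added 1 makes the fold changes of low genes too small. Alternatives were other pseudocounts, filters, scalings and tests, each library left out, and subtraction of the median of neighbouring genes. That median was taken over up to 20 tested protein-coding genes on each side (40 in all, but 26 for WNT5B and 39 for TNFRSF19). Positions and exon lengths came from GENCODE v44, whereas the study names a RefSeq annotation and the table lists Ensembl identifiers, so levels per kilobase and shares of a family rest on lengths that may not be those counted. Of 160 list symbols, 159 were matched by symbol and 1 by identifier. The genes named outside the 4 families are up to 4 per list with the largest change past both thresholds, 9 chosen by role, and BMP4, SERPINF1 and DAAM1, named after their values were seen to complete a count. Members and lists were chosen with earlier results of these data known. Counting depth sets the precision of low genes, and floors cover counting error only.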

Additional observations from a re-analysis of the deposited data

How the results depend on the processing

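Under the 17 alternatives, the members past both thresholds numbered 2 to 4 higher and 4 to 7 lower. Over all tested genes the number past both ran from 1511 of 13004, with a filter at a mean of 50, to 2858 of 28451, with no filter. In the main test the shares were 33.3% of tested members and 14.7% of all tested genes. Of the 27 tested members, 20 kept their direction and their combined call under every alternative run for them. DKK1, WNT7B, WNT11, WNT16, WNT5B and FZD10 were among these 20. WNT5A lost the fold threshold with the neighbours' median subtracted, and WNT10A and WNT2B lost their calls when single libraries were left out. WNT10A was also lost with no filter on low values (limma adjusted p = 0.0722), without the trend (0.0568) and with the median of its neighbours subtracted (0.0512). The direction of 3 values that were not called turned. FZD6 was at 0.011 without KYSE70 library 2 and 0.020 without NRF2null-KYSE70 library 1 (range with 1 library left out -0.032 to 0.020). SFRP5 was at 0.033 under quantile normalization, 0.010 without KYSE70 library 2 and 0.047 without NRF2null-KYSE70 library 3 (range -0.17 to 0.047). LGR5 was at -0.11 without KYSE70 library 1 (range -0.11 to 0.58). The cause was not tested. Total scaling shifted all fold changes by a median of -0.075. A filter at a mean of 50 left WNT16, WNT4, WNT3A, WNT10A and WNT2B untested, and called 1511 genes in all where the main test called 2344. Of 54 levels per kilobase, 21 moved by more than 1 SD with the canonical length, most of all DKK3. No paired analysis was possible because no number in the table ties a library of one line to a library of the other. Differences in genes with few reads were limited by depth.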
